A study of Mus musculus with 12 samples.

Results

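The genes described here encode core and regulatory parts of the pre-mRNA splicing machinery, and they were followed from naive B cells to plasmablasts. They were chosen by name. A gene of the table was a member if its symbol began with Srsf and a digit (SR proteins), Hnrnp (heterogeneous nuclear ribonucleoproteins, hnRNPs), Snrp (proteins of the small nuclear ribonucleoproteins, snRNPs), or Sf3a or Sf3b and a digit (the splicing factor 3 complexes). Hnrnpll and pseudogenes were left out. The rule gave 51 of the 27179 genes in the table: 11 Srsf, 19 Hnrnp, 12 Snrp and 9 Sf3 genes. The rule itself uses no expression value, but it was set with earlier results of these data known.

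RNA-Seq covered 12 libraries of splenic B cells from male C57BL/6 mice (by the study's methods, on a C57BL/6 Pep3b background) of 6 to 12 weeks of age, with 2 biological replicates for each of 6 stages. Naive B cells were sorted as B220+IgM+IgDhi cells without TCRβ and received no treatment. All other stages received 25 µg/ml lipopolysaccharide (LPS) of Salmonella typhosa, which activates B cells through a Toll-like receptor. These cells had been isolated by negative selection and cultured, and none of the 12 libraries is from cells cultured without LPS. In comparisons with naive cells, isolation and culture therefore cannot be told apart from LPS. Undivided CD69+ cells, those that had kept the most of the division dye CellTrace Violet, were sorted after 3, 10 and 33 h. On day 4, CD22+CD138- cells were sorted as expanded B cells, and CD22-CD138+ cells, which secrete antibody, as plasmablasts. These populations are fractions of the same day and not successive times. A transition, rise or fall from expanded B cells into plasmablasts thus stands for a difference between fractions. By the study's methods, the day 4 cultures were set up at a lower cell density than those of 3, 10 and 33 h. This difference cannot be told apart from that of stage. The labels do not say which libraries came from the same mouse, or whether several mice were pooled.

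In pre-mRNA splicing, the U1 snRNP pairs with the 5′ splice site and the U2 snRNP with the branch point. Each of these particles is built on a ring of Sm proteins, and the U2 snRNP also carries the SF3a and SF3b complexes. SR proteins mostly bind exonic enhancers and promote the use of nearby splice sites, while hnRNPs coat nascent RNA and often oppose them, so that their balance bears on alternative splicing. Many SR protein and hnRNP genes also contain so-called poison exons, whose inclusion sends their own mRNA to nonsense-mediated decay. In B cells, the choice between the membrane and secreted form of immunoglobulin, and between IgM and IgD, is made during the processing of heavy chain transcripts. The values given here are counts per gene and cannot tell isoforms apart.

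The promoters of the members were searched for common core motifs, because many members changed together. RefSeq gave a promoter, from 250 bases before to 50 after the start (GRCm38.p6, the same assembly as mm10), for 46 of the members. The core of ETS factor sites, CCGGAAG, was looked for on both strands. It was present in 34.8% of these 46 promoters (16), in 18.8% of the promoters of tested genes and in 9.12% of all 27025 promoters. Sf3 genes held it in 6 of 7 promoters, Snrp genes in 4 of 10, Srsf genes in 4 of 11 and Hnrnp genes in 2 of 18. CCAAT, also on both strands, was found in 47.8% of the member promoters, with 12 of 18 in the Hnrnp family, in 39.2% of the promoters of tested genes and in 37.9% of all promoters. The E-box CACGTG was present in 10.9% of the member promoters, 10.2% of those of tested genes and 7.24% of all, with 4 of 18 in the Hnrnp family, 1 of 10 in Snrp, 0 of 11 in Srsf and 0 of 7 in Sf3. None of the 3 motifs contains another. The stretches of the Sf3 promoters around the ETS core are shown, with the core in capitals (CTTCCGG is the core on the other strand), because it was the motif that most promoters of a family shared. Sf3b6 held a second core on the other strand, with its first base at -85 from the start where that of the one shown is at -70.
Sf3a1, chr11:4160337-4160363 (+): gagggcgggaCCGGAAGtgctcccgcg
Sf3a2, chr10:80798649-80798675 (+): gcctttgctcCCGGAAGggatcgcttc
Sf3a3, chr4:124714761-124714787 (+): ccccaagacaCTTCCGGgacacgcgga
Sf3b2, chr19:5295452-5295478 (-): gattacgcaaCCGGAAGtttctggaag
Sf3b3, chr8:110847016-110847042 (-): ccggtgggcgCTTCCGGgcttgcgagg
Sf3b6, chr12:4817528-4817554 (+): ggtccgcaatCCGGAAGcgttctggag

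The whole promoters of Srsf7 and Srsf2 are shown as well, since these were the members with the largest rise after activation. Capitals mark the ETS core in Srsf7 and CCAAT in Srsf2. These were the only matches to the 3 motifs in either promoter.
Srsf7, chr17:80207256-80207555 (-): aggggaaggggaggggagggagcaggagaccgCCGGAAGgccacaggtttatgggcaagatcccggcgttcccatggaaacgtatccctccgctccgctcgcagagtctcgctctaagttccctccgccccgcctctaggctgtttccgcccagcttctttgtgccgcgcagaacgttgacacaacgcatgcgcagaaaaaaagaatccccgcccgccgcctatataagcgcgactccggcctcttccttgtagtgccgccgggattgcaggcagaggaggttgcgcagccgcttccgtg
Srsf2, chr11:116853045-116853344 (-): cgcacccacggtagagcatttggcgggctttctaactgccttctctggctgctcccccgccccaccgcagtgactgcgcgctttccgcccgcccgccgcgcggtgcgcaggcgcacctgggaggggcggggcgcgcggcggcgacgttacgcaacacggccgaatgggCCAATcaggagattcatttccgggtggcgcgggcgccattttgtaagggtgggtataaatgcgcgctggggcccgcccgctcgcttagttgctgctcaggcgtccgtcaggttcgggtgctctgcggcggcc

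Total counts per library ran from 23.03 M to 60.59 M, with a median of 37.84 M (M, mega-counts), so that a count of 0 allows up to 0.0495 to 0.13 CPM (counts scaled to a library of 1 M; 3 counts, counting error only). Cd79b, a part of the B cell receptor, was at 704 RPKM or more in every library. Sdc1, which encodes CD138, stood at 47.6 and 48.0 RPKM in plasmablasts and at most at 8.54 RPKM elsewhere. Cd22 stood at 0.432 and 0.368 RPKM in plasmablasts. The summed level of 6 plasmablast markers was at least 10681 RPKM there and at most 1071 RPKM elsewhere. Jchain and Xbp1 made up most of it in plasmablasts. Irf4, another of the 6, was instead highest at 3 h (709 and 519 RPKM, against 242 and 290 RPKM in plasmablasts). The T cell genes Cd3d, Cd3e, Cd4, Cd8a and Cd8b1 stayed under 1 RPKM in all libraries, and the summed level of 8 T cell markers, nearly all of it Lck, was 31.4 and 34.8 RPKM in naive cells and 6.01 to 17.9 RPKM elsewhere. The naive libraries differed from the others in a further way. The summed level of 8 myeloid markers was 407 and 163 RPKM in the naive libraries and between 0.205 and 9.74 RPKM in the other 10, and that of the 5 erythroid markers found (of 6) was 380 and 290 RPKM against 0.257 to 3.2 RPKM. S100a8, S100a9 and Lyz2 made up most of the myeloid sum and hemoglobin genes most of the erythroid sum. Mpo and Cd14 were under 1 RPKM in naive cells as well. Itgam and Adgre1 were instead highest in expanded B cells (5.43 and 4.92 RPKM, and 4.23 and 4.35 RPKM). The part of these transcripts in the comparisons with naive cells was not tested.

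Levels are given as RPKM (counts per kilobase of exon and per 1 M of TMM-scaled library size). Of the 51 members, 49 were tested together with all other genes kept (12750 genes). Snrpn failed the filter on low counts, and Hnrnph2 was left out by its chromosome. DE (differentially expressed) stands for genes in which edgeR's glmTreat found a fold change beyond 1.5 at an adjusted p under 0.05. The quasi-likelihood F-test of the same fit was used for changes of any size.  Snrpn, the form of SmB best known from neurons, had 1 count in all 12 libraries. Hnrnph2 lies on the X chromosome, which the fit leaves out. Srsf12 was tested, but only because of its counts in naive cells, which were 11 and 9 against 0 to 3 in every other library. The values of each of the other members are shown in the heat map by library.

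**Figure D1:**
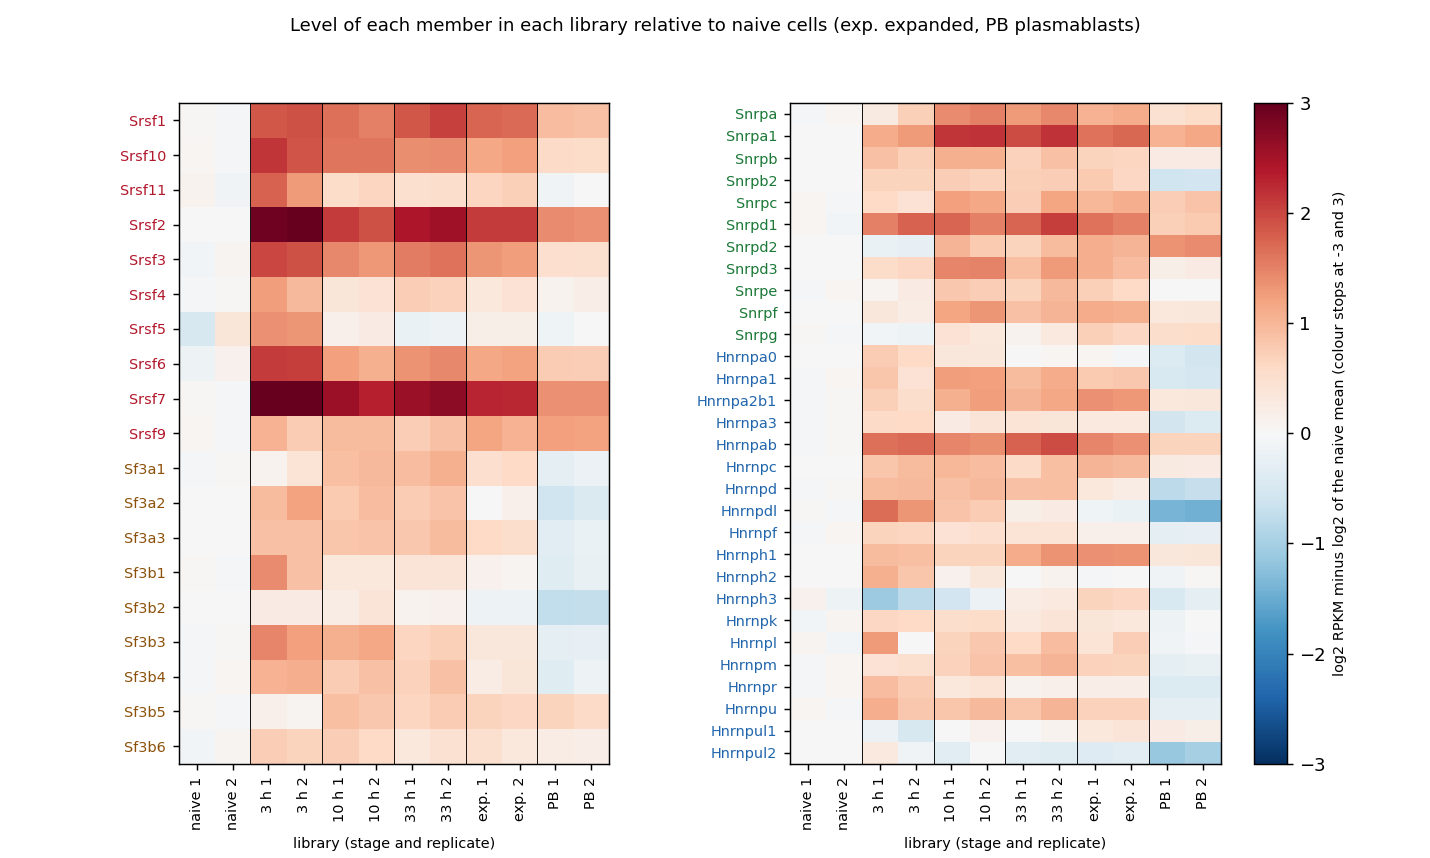
Log2 RPKM of each member in each of the 12 libraries, minus the log2 of its mean in the naive libraries (red higher, blue lower, colours stop at -3 and 3). Srsf12 and Snrpn are left out for their low counts; names are coloured by family. Most Srsf genes are darkest red at 3 h, several Snrp genes only from 10 h, and most Hnrnp and Sf3 genes turn pale or blue in plasmablasts (PB).

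The families followed different courses. The summed level of the Srsf genes was 359 and 385 RPKM in naive cells. After 3 h it was 1637 and 1577 RPKM, after 10 h 961 and 891 RPKM, and after 33 h 1066 and 1139 RPKM. Expanded B cells had 954 and 947 RPKM, and plasmablasts 644 and 643 RPKM. The mean at 3 h was thus 4.32 times that of naive cells, and the mean in plasmablasts 1.73 times. The summed Snrp level was instead highest at 10 h, when it was 1505 and 1465 RPKM, after 677 and 682 RPKM in naive cells and 997 and 1007 RPKM after 3 h. The Hnrnp genes together stayed between 2829 and 3391 RPKM from 3 h to the expanded stage, against 1747 and 1781 in naive cells and 1707 and 1722 in plasmablasts. The summed Sf3 level was 734 and 748 RPKM in naive cells, then 1297 and 1248 RPKM after 3 h, and only 643 and 658 RPKM in plasmablasts. Less RNA per cell and fewer cells of a kind cannot be told apart in such bulk libraries. As a share of all counts, which does not depend on the TMM scaling, Srsf genes took 0.0864% in naive cells, 0.335% at 3 h and 0.119% in plasmablasts (means of 2), while the Hnrnp share was highest at 10 h (0.936%) and lowest in plasmablasts (0.373%).

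**Figure D2:**
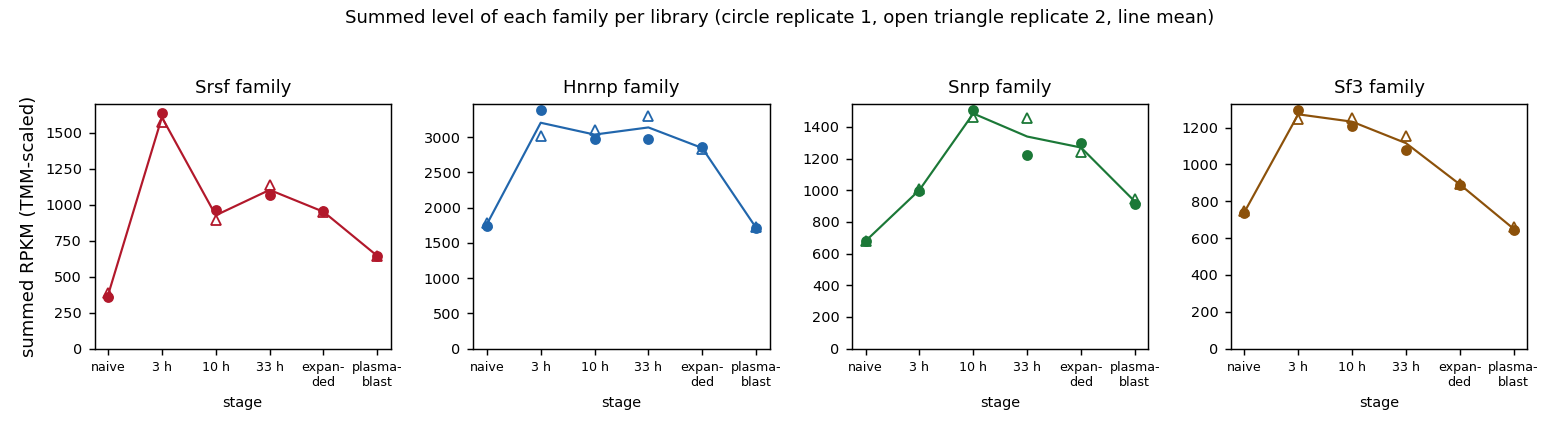
Summed RPKM of each family (y axis, starting at 0) in each library by stage (x axis). Circles are replicate 1, open triangles replicate 2 and lines join the means. The Srsf sum is highest at 3 h (1637 and 1577 RPKM) and the Snrp sum at 10 h (1505 and 1465 RPKM).

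Of the 49 tested members, 37 were DE at 1 or more of the 5 consecutive transitions (the last between fractions of the same day), against 71.1% of all tested genes, and 12 at none. These 12 were Hnrnpa0, Hnrnpf, Hnrnpk, Hnrnpl, Hnrnpul1, Hnrnpul2, Sf3b2, Sf3b6, Snrpc, Snrpe, Snrpg and Srsf12. Both libraries of the 3 h stage stood above the other 10 for 18 members (17.7% over all tested genes), of which 8 were Srsf, 6 Hnrnp, 4 Sf3 and 0 Snrp genes. For 5 members this was the 10 h stage (6.57% of all genes), namely Hnrnpa1, Sf3b5, Snrpb, Snrpd3 and Snrpf. For another 5 it was the expanded stage (5.51%), namely Hnrnpa2b1, Hnrnph1, Hnrnph3, Hnrnpul1 and Snrpg. Only 2 were highest at 33 h, Hnrnpab and Hnrnpm (5.36%), and 2 in plasmablasts, Snrpd2 and Srsf9 (19.3%). Both naive libraries were the lowest of all for 21 members (16.0%), both plasmablast libraries for 18 (16.8%), and both 3 h libraries for Hnrnph3, Hnrnpul1, Snrpd2 and Snrpg (17.3%). With scaling by library size alone and no TMM factors, the counts highest at 3 h, at 10 h and in plasmablasts became 9, 13 and 0, and the count lowest in naive cells became 13, so these orders depend on the scaling for part of the members.

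**Figure D3:**
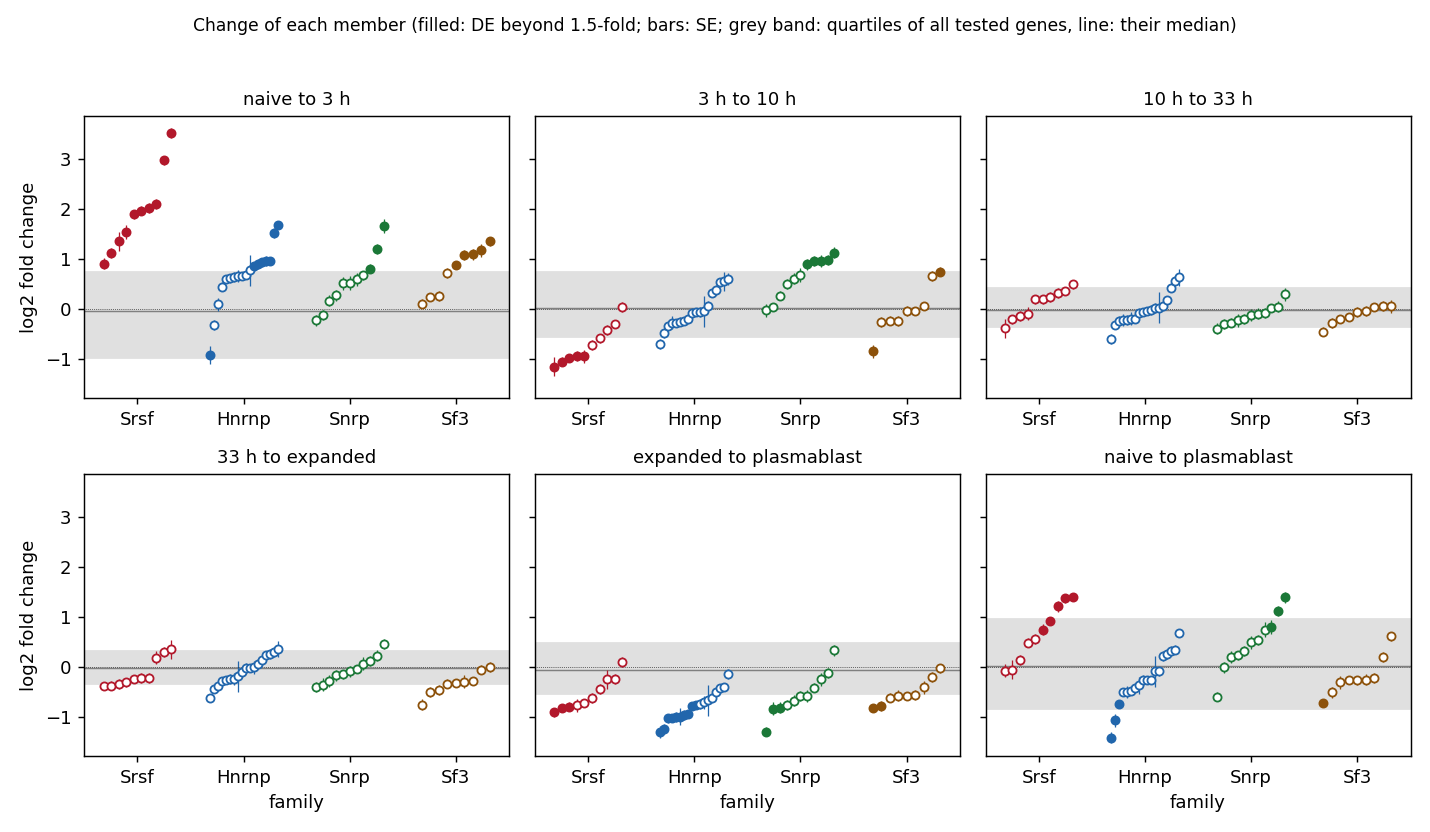
Log2 fold change of each tested member except Srsf12 (y axis) by family (x axis) for the 6 comparisons; bars are standard errors and filled points are DE beyond 1.5-fold. The grey band spans the quartiles of all tested genes and the line their median. In the first 3 h all 10 Srsf genes shown are filled and above 0, and into plasmablasts all 18 filled points are below 0.

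Most members were higher after 3 h in culture with LPS than in naive B cells. Of the 49, 25 were DE upwards (21.0% of all tested genes were) and 1 downwards (24.3%). For changes of any size, the F-test called 41 upwards (34.7%) and 3 downwards (36.3%). Srsf12 was 1 of the 3, but it was tested only because of its naive counts, which fixed its direction. It also enters every Srsf median given here. The median log2 fold change was 0.80 over the members and -0.03 over all tested genes. It was 1.89 in the Srsf family, 0.88 in Sf3, 0.67 in Hnrnp and 0.52 in Snrp. All of these medians stayed above 0 with library size alone, which lowered the median of all genes by 0.21.

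All SR protein genes but Srsf12 rose, 10 of 11 (21.0% of all tested genes). Srsf7, which also binds RNA as a partner of mRNA export, showed the largest rise of any member. Its level was 17.6 and 17 RPKM in naive cells and 197 and 194 RPKM at 3 h, a log2 fold change of 3.50 (SE 0.10, adjusted p = 1.1e-10, edgeR glmTreat). Srsf2 (SC35), the most abundant SR protein gene at every stage, rose from 74.3 and 74.5 RPKM to 565 and 602 RPKM, a 7.84-fold change. The 3 h libraries of both genes lay far above the naive ones, and the spread between replicates was small beside that gap. Srsf6, Srsf10, Srsf3 and Srsf1 followed with fold changes of 4.25, 4.04, 3.89 and 3.70. Srsf1 (ASF/SF2), a long-studied constitutive factor, had 31.2 and 29.7 RPKM in naive cells and 111 and 114 RPKM at 3 h. The smallest rise was that of Srsf9, from 45.1 and 41.5 to 89.2 and 73.3 RPKM (1.87-fold), and its call was lost with library size alone (adjusted p = 0.1). Srsf5 was uneven in naive cells, with 32.3 and 57.7 RPKM, yet both values lay below the 117 and 112 RPKM at 3 h. Exons of Srsf2 and Srsf4 overlap with genes on the other strand over 25.3% and 43.0% of their length, and the strand setting of the counting is not given in the sources used here.

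Of the hnRNP genes, 7 of 18 rose and 1 fell (21.0% and 24.3% of all tested genes). The rise was largest for Hnrnpab, a protein that binds AU-rich and telomeric sequences, and the most abundant hnRNP gene at every stage. It went from 212 and 226 RPKM to 691 and 706 RPKM (log2 fold change 1.68, SE 0.08, adjusted p = 2.5e-08, edgeR glmTreat). Its exons overlap with Phykpl on the other strand over 29.1% of their length. Hnrnpdl, a close relative of Hnrnpd (AUF1), was next, with 60.6 and 57.7 RPKM in naive cells and 188 and 149 RPKM at 3 h. Hnrnpd, Hnrnpu, Hnrnph1, Hnrnpc and Hnrnpr rose by 1.80 to 1.95-fold, although Hnrnpc and Hnrnpr were not called with library size alone. Hnrnpd and Hnrnpdl are neighbours on chromosome 5, with 54.4 kb between them. The only DE gene that fell was Hnrnph3, the least abundant hnRNP gene, from 5.16 and 4.22 RPKM to 2.19 and 2.73 RPKM (log2 fold change -0.92, SE 0.18, adjusted p = 0.028). This call was lost with DESeq2 and without naive replicate 1 or 3 h replicate 1 (adjusted p up to 0.20), while both 3 h values lay below both naive values and the log2 fold change stayed between -0.77 and -1.13 when each library of the 2 stages was left out in turn. Hnrnph2, in a fit that kept the X chromosome, rose from 45.5 and 45.8 RPKM to 95 and 81.5 RPKM (log2 fold change 0.95, adjusted p = 0.0011).

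Hnrnpl encodes a regulator of Ptprc (CD45) exon choice in lymphocytes, and a paralog of the Hnrnpll gene left out by the rule. In naive cells its level was 112 and 99.5 RPKM, but its 3 h libraries stood at 255 and 107 RPKM, the first above and the second between the naive values. The change was not DE (log2 fold change 0.77, SE 0.31, adjusted p = 0.23, edgeR glmTreat), although the F-test called it (adjusted p = 0.046). No other member differed by more than 1.5-fold between the replicates at 3 h, and over the 48 members compared the SD of the log2 ratio of replicates there was 0.27, against 0.42 over all tested genes.

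Among the snRNP proteins, 3 of 11 rose (2 with DESeq2), a share near the 21.0% of all tested genes. Snrpd1 (SmD1) went from 27.8 and 25.2 RPKM to 75.6 and 90.3 RPKM (log2 fold change 1.65, SE 0.14, adjusted p = 3.0e-06, edgeR glmTreat). Snrpa1, which encodes the A′ protein of the U2 snRNP, rose 2.29-fold and Snrpb (SmB) 1.74-fold, the last with its call lost with library size alone, with DESeq2 and without 3 h replicate 1. Snrpd1 is a partner of Snrpd2 in the Sm ring, but Snrpd2 was not higher, with 61.9 and 61.8 RPKM in naive cells and 54.1 and 52.5 RPKM at 3 h (log2 fold change -0.22, SE 0.11). None of the 11 fell by glmTreat (24.3% of all tested genes did), where 0 had an unadjusted p under 0.05 and DESeq2 called 0. Both Snrpd1 and Snrpd2 have 1 pseudogene with a stretch of at least 160 bases at 97% identity or more, and how reads matching several places were counted is not given in the sources used here.

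In the U2-bound Sf3 complexes, 5 of 9 genes rose (21.0% of all tested genes). Sf3b3 had the largest change, from 99.1 and 103 RPKM to 280 and 236 RPKM (log2 fold change 1.35, SE 0.09, adjusted p = 7.5e-07, edgeR glmTreat). Sf3b1, which holds the branch point and is often mutated in human blood cancers, had 62.9 and 60.6 RPKM in naive cells and 164 and 114 RPKM at 3 h (2.25-fold). The other risers were Sf3a2, Sf3b4 and Sf3a3, the last of which was lost with library size alone. Sf3b5 and Sf3b2 showed fold changes of 1.08 and 1.19 and were not DE. Subunits of one complex thus changed to unequal degrees, from 1.08 to 2.56-fold.

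Between 3 and 10 h the families parted. Srsf genes fell (5 of 11) while Snrp genes rose (5 of 11), and the hnRNP genes had 0 calls in either direction. Over all members 6 were DE upwards (17.4% of all tested genes) and 6 downwards (13.4%), and for changes of any size 16 upwards (32.1%) and 18 downwards (30.2%). The family medians were -0.94 for Srsf, 0.67 for Snrp, -0.06 for Hnrnp and -0.04 for Sf3, with 0.02 over all genes. The Srsf median includes Srsf12 (log2 fold change -1.67), which had few counts at both stages. With library size alone, which raised the median of all genes by 0.33, the Srsf and Snrp medians kept their sign (-0.60 and 1.01), the Hnrnp and Sf3 medians were 0.27 and 0.29, and the calls were 12 upwards and 0 downwards. Without 3 h replicate 1, 3 were called downwards. In the hnRNP family 0 members had an unadjusted p under 0.05 by glmTreat in either direction, and DESeq2 called 0.

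The falls followed the rises. Srsf2, Srsf5, Srsf6, Srsf7 and Srsf11 fell by 10 h, and all had risen by 3 h. Srsf5 fell most, from 117 and 112 RPKM to 50.2 and 53.4 RPKM (log2 fold change -1.15, SE 0.19, adjusted p = 0.0067, edgeR glmTreat). It was thereby back within the range of its naive libraries, and its call was lost with library size alone and without 3 h replicate 1. Srsf7 fell to 102 and 86.8 RPKM, still far above naive cells. Srsf1 and Srsf9 did not pass glmTreat, with log2 fold changes of -0.30 and 0.05. Sf3b1 fell to 77.5 and 77.3 RPKM (log2 fold change -0.84, SE 0.13, adjusted p = 0.031), but 5 of 13 alternatives did not call it, among them DESeq2 and the fits without 3 h replicate 1 or either 10 h replicate.

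The late risers were Snrpd2 (SmD2), Snrpf (SmF), Snrpd3 (SmD3), Snrpa1 and Snrpa, which encodes the A protein of the U1 snRNP. Snrpd2 rose from 54.1 and 52.5 RPKM to 125 and 107 RPKM (log2 fold change 1.12, SE 0.11, adjusted p = 2.7e-04, edgeR glmTreat). Snrpa1, already higher at 3 h, rose again from 61.3 and 68.4 RPKM to 125 and 127 RPKM. Snrpf went from 26.5 and 24.4 RPKM to 47.5 and 51.9 RPKM, but 85.4% of its exon length lies opposite to another gene. For each of these the 10 h libraries lay above both the naive and 3 h libraries. Snrpd2, Snrpa1 and Snrpf were called under all 13 alternatives run, whereas DESeq2 called neither Snrpa nor Snrpd3. Of the Sf3 genes, Sf3b5 went from 101 and 95.6 RPKM to 170 and 158 RPKM (log2 fold change 0.74, SE 0.09, adjusted p = 0.043), a call that 5 of 13 alternatives lost, including those with size factors of DESeq2 and with no filter.

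From 10 to 33 h and from 33 h to expanded B cells, no member was DE in either direction by glmTreat. The shares of all tested genes were 10.1% upwards and 4.45% downwards at the first of these transitions, and 6.94% and 3.66% at the second. At an unadjusted p under 0.05 there was 1 member, Sf3a2, lower in expanded B cells, and DESeq2 called 0 at both. Smaller changes passed the F-test. There were 7 upwards (23.2% of all genes) and 8 downwards (22.2%) from 10 to 33 h, and 4 upwards (18.5%) and 18 downwards (21.2%) from 33 h to the expanded stage. These counts rest on few libraries: the 8 became 3 to 5 without 33 h replicate 1 or either 10 h replicate, the 18 became 9 without either expanded replicate, and the 4 became 7 without 33 h replicate 2 and 1 without any of the other 3 libraries. Srsf2 went from 317 and 278 RPKM at 10 h to 402 and 431 RPKM at 33 h (log2 fold change 0.49, F-test adjusted p = 4.0e-04, edgeR). Hnrnph1, which binds G-rich runs, went from 77.7 and 77.8 to 105 and 124 RPKM (log2 fold change 0.56). Hnrnpdl was lower at both transitions, falling from 107 and 101 RPKM to 67.1 and 69.9 RPKM by 33 h, and to 53.9 and 51.3 RPKM in expanded B cells (F-test adjusted p = 3.9e-04 and 0.0099). Of the 18 that were lower in expanded B cells, 6 were Sf3 genes, including Sf3a2, which had 177 and 190 RPKM at 33 h and 103 and 116 RPKM in expanded B cells (log2 fold change -0.75). Upwards were Snrpg, Srsf9, Hnrnpul1 and Hnrnpc, with log2 fold changes from 0.26 to 0.46.

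**Figure D4:**
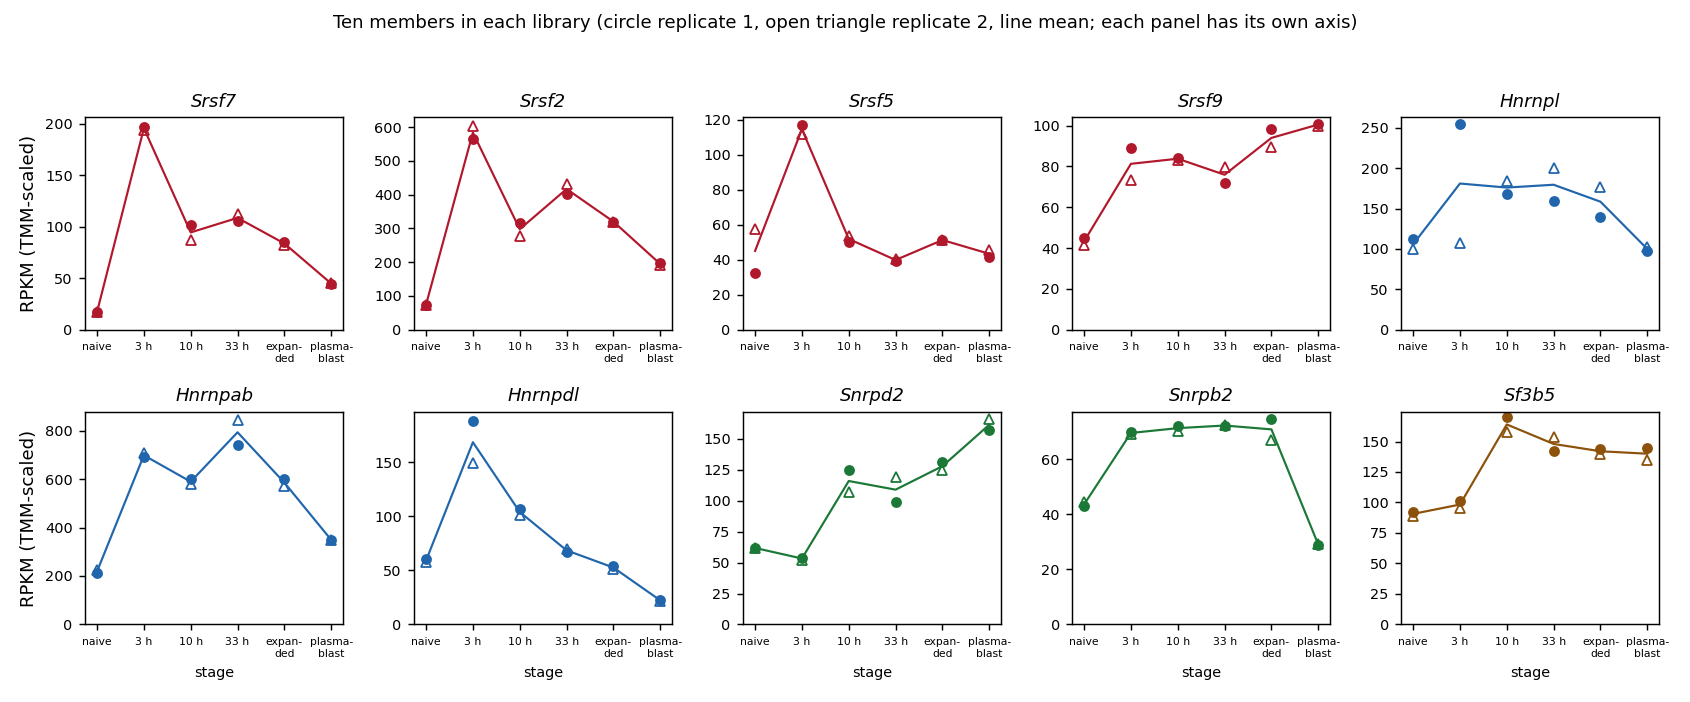
RPKM (y axes start at 0 and differ between panels) of 10 members in each library by stage. Circles are replicate 1, open triangles replicate 2 and lines join the means. Srsf7 stands at 197 and 194 RPKM at 3 h and 44.4 and 45.1 RPKM in plasmablasts, Snrpd2 is highest in plasmablasts (157 and 166 RPKM, with TMM scaling but not with library size alone), and the 3 h replicates of Hnrnpl lie apart (255 and 107 RPKM).

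Plasmablasts held lower levels of nearly all members than expanded B cells of the same day. There were 18 DE downwards (12.2% of all tested genes) and 0 upwards (13.9%). For changes of any size, 38 were called downwards (29.7%) and 1, Snrpd2, upwards (27.2%). The call of Snrpd2 was lost with library size alone. The median log2 fold change was -0.66 over the members and -0.05 over all tested genes, and only Snrpd2 (0.34) and Srsf9 (0.10) had values above 0. Upwards, 0 members had an unadjusted p under 0.05 by glmTreat and DESeq2 called 0. The family medians were -0.76 for Hnrnp, -0.62 for Srsf, -0.58 for Snrp and -0.57 for Sf3. The count of 18 became 9 with DESeq2 or without expanded replicate 1, 10 without plasmablast replicate 1, and 37 with library size alone, which lowered the median of all genes by 0.33. Jchain, which joins secreted IgM, stood at 8216 and 7779 RPKM in plasmablasts, and its part in the lower levels of the members was not tested.

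The hnRNP genes accounted for 10 of the 18. Hnrnpa1, which opposes SR proteins at many splice sites and serves in mRNA export, fell from 62.1 and 63.2 RPKM to 26.0 and 25.3 RPKM (log2 fold change -1.29, SE 0.12, adjusted p = 6.1e-05, edgeR glmTreat). Hnrnpa1 has 7 pseudogenes and Hnrnpa3 15 with such near-identical stretches. Hnrnpdl fell further, to 22.6 and 21.9 RPKM, less than in any other library. The relatives Hnrnpa2b1 and Hnrnpa3 fell as well, to 0.499 and 0.587 of their expanded levels, while Hnrnpa0, a gene with a single exon, did not pass the test (-0.50). Hnrnpd, Hnrnph1, Hnrnph3, Hnrnpm, Hnrnpu and Hnrnpab were the others. Of the 10, Hnrnpa1, Hnrnpa2b1, Hnrnpd, Hnrnpdl, Hnrnph1, Hnrnpm and Hnrnpu were DE under all 13 alternatives. Hnrnpul1, which acts in transcription and DNA repair, hardly differed, with 133 and 139 RPKM in expanded B cells and 127 and 121 RPKM in plasmablasts (log2 fold change -0.13, SE 0.10).

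Snrpb2 encodes the B″ protein of the U2 snRNP, a close paralog of the U1 protein of Snrpa. It fell from 74.8 and 66.9 RPKM to 28.8 and 29.2 RPKM (log2 fold change -1.29, SE 0.09, adjusted p = 3.5e-06, edgeR glmTreat), below its naive level of 42.9 and 44.3 RPKM. Snrpa went from 73.7 and 77.8 to 49.0 and 52.1 RPKM (log2 fold change -0.58, SE 0.12), which was not DE. The difference between them was not tested. Snrpd3 and Snrpd1 also fell, both with calls that 6 and 8 of 13 alternatives lost. In contrast, Snrpd2 had 131 and 125 RPKM in expanded B cells and 157 and 166 RPKM in plasmablasts, the highest of all its libraries, and Snrpg (SmG) had 116 and 109 against 103 and 104 RPKM. With library size alone, Snrpd2 was not called by the F-test here and did not stand highest in plasmablasts.

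Among SR proteins, Srsf7 fell from 85 and 82.3 RPKM to 44.4 and 45.1 RPKM (log2 fold change -0.90, SE 0.09, adjusted p = 0.0020, edgeR glmTreat) under all 13 alternatives. Srsf1 and Srsf3 fell as well, by 0.82 and 0.79 on the log2 scale, but were not called by DESeq2. Srsf9 was the exception, with 98.3 and 89.6 RPKM in expanded B cells and 101 and 100 RPKM in plasmablasts. The Sf3 genes that fell were Sf3a3, from 89.4 and 85.6 to 47.1 and 51.8 RPKM (log2 fold change -0.82, SE 0.08, adjusted p = 0.0078), and Sf3a1. Sf3a3 was not called by DESeq2 or without expanded replicate 1 or plasmablast replicate 1 (adjusted p up to 0.12). Sf3a1 was called under 6 of 13 alternatives. Sf3b5 did not move, with 144 and 140 RPKM against 145 and 135 RPKM (log2 fold change -0.02, SE 0.09).

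Over the whole course, from naive cells to plasmablasts, 8 members were higher (26.6% of all tested genes) and 5 lower (23.4%), and for changes of any size 20 higher (38.2%) and 17 lower (35.9%). Both counts of lower members include Srsf12. With library size alone, under which the median of all genes was lower by 0.28, these counts of DE members became 5 higher and 10 lower. Without naive replicate 2 or plasmablast replicate 1, 2 were lower. The higher ones were Srsf1, Srsf2, Srsf6, Srsf7, Srsf9, Snrpa1, Snrpc and Snrpd2. Srsf2 stood at 198 and 191 RPKM in plasmablasts against 74.3 and 74.5 RPKM in naive cells (log2 fold change 1.39, SE 0.08, adjusted p = 2.2e-07, edgeR glmTreat). Snrpd2 reached the same log2 fold change of 1.39 (SE 0.11, adjusted p = 3.5e-06). Snrpa1, Snrpd2, Srsf2, Srsf7 and Srsf9 were called under all 13 alternatives, and Srsf6 and Snrpc under 7 each.

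The lower ones were Hnrnpd, Hnrnpdl, Hnrnpul2 and Sf3b2, besides Srsf12, for which the filter on low counts fixed the direction. Hnrnpdl showed the largest loss with ample counts, from 60.6 and 57.7 RPKM to 22.6 and 21.9 RPKM (log2 fold change -1.41, SE 0.11, adjusted p = 1.4e-06, edgeR glmTreat), after having been highest of all stages at 3 h. Hnrnpul2, DE at none of the single transitions, fell by 1.06 on the log2 scale (75.6 and 77.2 to 34.9 and 38.5 RPKM). Sf3b2 went from 172 and 177 RPKM to 105 and 106 RPKM (log2 fold change -0.72, SE 0.08, adjusted p = 0.027), a call that DESeq2 and 3 of 4 fits without a library lost (adjusted p up to 0.18). Srsf12, a weakly expressed SR protein gene, had 20 counts in naive cells and 2 in plasmablasts, a ratio of 0.115 with a 95% interval from counting error of 0.0130 to 0.473. This is a description only, since the gene entered the fit through its naive counts. The summed levels of the myeloid and of the erythroid markers were also highest in the naive libraries.

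The make-up of the families changed as well, and shares within a family do not depend on the scaling of libraries. Srsf2 supplied 20.7 and 19.4% of the summed Srsf level in naive cells and 34.5 and 38.2% at 3 h, and Srsf7 went from 4.89 and 4.42% to 12.1 and 12.3%. In plasmablasts, Srsf9 made up 15.6% in both libraries, against 12.6 and 10.8% in naive cells and 5.45 and 4.65% at 3 h. In the Snrp family, Snrpd2 supplied 9.15 and 9.06% in naive cells, only 5.43 and 5.21% after 3 h, and supplied 17.2 and 17.6% in plasmablasts. Snrpb2 ran the other way, with 6.33 and 6.49% in naive cells and 3.14 and 3.10% in plasmablasts. The share of Sf3b5 in the Sf3 family was 12.6 and 11.9% in naive cells, only 7.77 and 7.66% after 3 h, and 22.5 and 20.5% in plasmablasts. In the hnRNP family, Hnrnpab supplied 12.1 and 12.7% in naive cells and 24.9 and 25.6% at 33 h. For each of these genes the replicates of the stages named did not overlap.

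**Figure D5:**
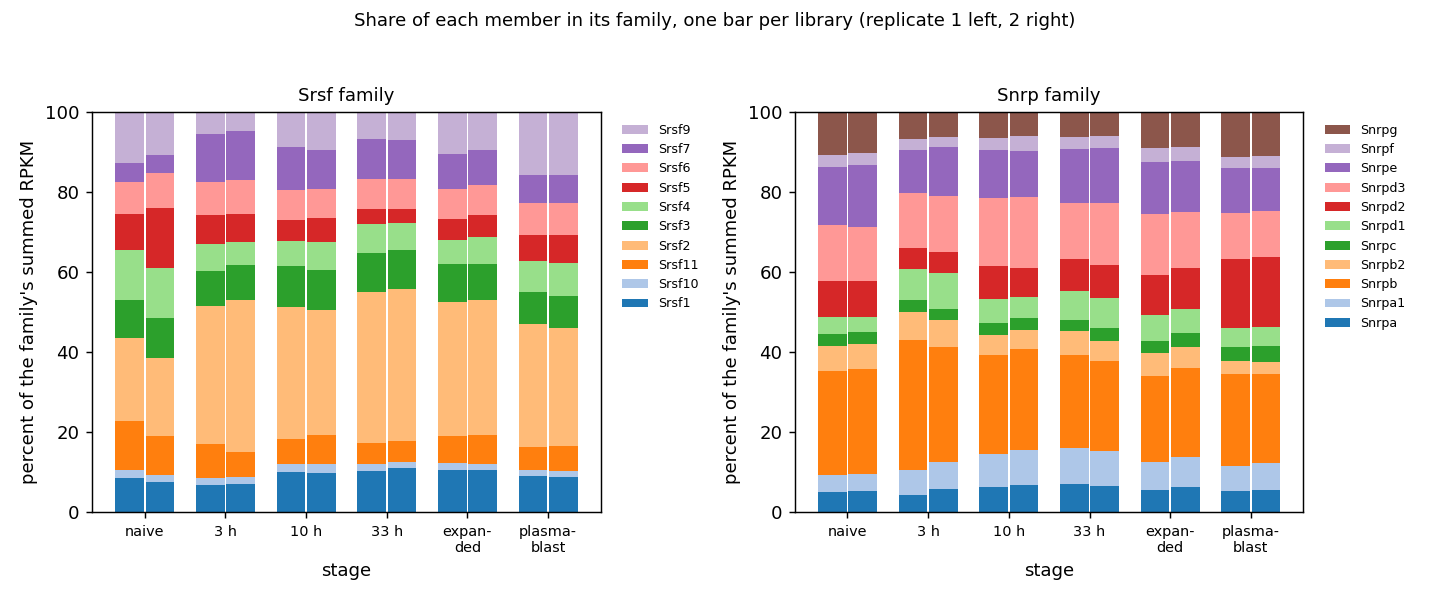
Share of each member in the summed RPKM of its family (y axis, percent) in each library by stage (x axis; replicate 1 left, replicate 2 right). Srsf12 and Snrpn, whose shares are near 0, are left out. The Srsf2 part widens from 20.7 and 19.4% in naive cells to 34.5 and 38.2% at 3 h, and the Snrpd2 part reaches 17.2 and 17.6% in plasmablasts.

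In the U1 and U2 snRNPs, the 7 proteins of the Sm ring are present in equal number. Their mRNA levels per length were unequal at all stages. In naive cells the mean level ran from 20.8 RPKM for Snrpf to 177 RPKM for Snrpb, an 8.51-fold range, with a median of 71.3 RPKM. Snrpb and Snrpf remained the highest and lowest of the 7 at every stage, and the range was between 6.28-fold in expanded B cells and 12.1-fold at 3 h. Exon lengths of the 7 in the table run from 393 bases for Snrpg to 1121 bases for Snrpb. Snrpd1, Snrpd2, Snrpe, Snrpf and Snrpg have near-identical stretches in other genes, while none was found for Snrpb and Snrpd3. Exons of Snrpf lie opposite to other genes over 85.4% of their length. The part of these overlaps and copies in the range was not tested.

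Other genes of the splicing machinery were examined in 4 lists chosen by function. Of 35 further snRNP and U2-associated proteins, 19 rose and 0 fell by 3 h, where 21.0% and 24.3% of all tested genes did (edgeR glmTreat, with 0 downwards at an unadjusted p under 0.05 and 0 by DESeq2). Rbm17, a partner of U2AF and SF3B1, rose most, from 64.9 and 69.9 RPKM to 285 and 292 RPKM. Into plasmablasts 5 of the 35 fell (2 with DESeq2), a share near the 12.2% of all tested genes. Of the snRNP assembly factors, 9 of 17 rose by 3 h (6 with DESeq2, 21.0% of all tested genes), led by Gemin5, which recognises snRNAs for the SMN complex (11.4 and 12.3 to 51.6 and 59.7 RPKM), and 7 fell into plasmablasts (3 with DESeq2, 12.2% of all tested genes), led by Prmt5, which methylates Sm proteins (82.1 and 81.1 to 30.6 and 28.9 RPKM, log2 fold change -1.45). Coprs, a cofactor of Prmt5, rose there from 3.81 and 3.85 to 9.98 and 12.0 RPKM.

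SR protein kinases and SR-related proteins had the largest share of risers of the 4 lists, with 15 of 20 up and 1 down by 3 h (21.0% and 24.3% of all tested genes). Tra2a, an SR-related splicing activator, rose from 13.4 and 10.3 to 93.0 and 82.8 RPKM (log2 fold change 2.89, SE 0.14, adjusted p = 4.5e-09), and the kinase gene Srpk2 fell from 8.55 and 10.4 to 4.59 and 3.20 RPKM. Between 3 and 10 h 5 of these 20 fell (13.4% of all tested genes), again with Tra2a first (36.3 and 32.8 RPKM at 10 h), and 0 rose by glmTreat, with 0 at an unadjusted p under 0.05 and 0 by DESeq2. Of 33 other RNA-binding regulators, 14 rose and 4 fell by 3 h (21.0% and 24.3% of all tested genes), from Syncrip (17.1 and 17.5 to 101 and 83.7 RPKM) to Mbnl2 (12.6 and 11.5 to 4.57 and 3.34 RPKM). Into plasmablasts 7 fell (12.2% of all tested genes), and Mbnl2 alone rose, to 31.9 and 30.4 RPKM. The median log2 fold changes of the 4 lists by 3 h were 0.88, 0.76, 1.10 and 0.47, against -0.03 over all tested genes, and into plasmablasts -0.52, -0.70, -0.42 and -0.54, against -0.05.

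At the other transitions the lists had few calls. From 3 to 10 h, 17.4% of all tested genes rose and 13.4% fell. Of the 35 further snRNP genes 4 rose and 2 fell, shares below these, with Lsm7 of the Lsm ring first among the risers (2.98 and 2.39 to 6.62 and 6.95 RPKM) and the helicase gene Ddx46 first among the fallers (49.6 and 54.3 to 26.4 and 22.6 RPKM). Ddx46 was also the only one of the 35 that rose from 10 to 33 h, to 44.3 and 52.9 RPKM, as Tra2a did among the SR-related genes (68.6 and 77.1 RPKM). Of all tested genes, 10.1% rose and 4.45% fell from 10 to 33 h. Of the 17 assembly factors 4 rose and 1, Gemin5, fell by 10 h (33.5 and 32.2 RPKM). DESeq2 called 0 of the rises by 10 h in the snRNP, assembly and other RNA-binding lists, and not the fall of Gemin5. Among the other regulators, Ybx1 rose from 564 and 584 to 1053 and 1056 RPKM and Rbm39 fell from 263 and 172 to 94.4 and 98.1 RPKM by 10 h, and Cirbp, a cold-inducible RNA-binding protein, fell from 12.5 and 13.8 to 5.77 and 4.25 RPKM by 33 h. From 33 h to expanded B cells 0 genes of the 4 lists were DE by edgeR glmTreat, with 0 at an unadjusted p under 0.05 and 0 by DESeq2. Few of all tested genes were DE there, 6.94% upwards and 3.66% downwards.

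Into plasmablasts, Lsm7 fell by 1.29 on the log2 scale (SE 0.33, adjusted p = 0.032, edgeR glmTreat) and Luc7l, related to a U1 snRNP protein of yeast, from 10.6 and 10.6 to 4.68 and 5.38 RPKM. Over the whole course, where 26.6% of all tested genes were higher and 23.4% lower, 6 of the 35 further snRNP genes were higher and 2 lower in plasmablasts than in naive cells, shares below these, led by the SF3b subunit gene Phf5a (24.1 and 24.4 to 65.1 and 71.4 RPKM) and the helicase gene Snrnp200 (92.5 and 97.7 to 45.1 and 50.6 RPKM). Of the assembly factors 3 were higher and 1 lower, with Coprs (0.552 and 0.677 to 9.98 and 12 RPKM) and Tgs1, which methylates the cap of snRNAs (18.4 and 18.5 to 6.38 and 7.47 RPKM). Tra2a was the 1 higher gene of its list (31.8 and 36.4 RPKM in plasmablasts). Of the 33 other regulators 3 were higher and 8 lower (4 with DESeq2), the latter a share near that of all genes, with Mbnl2 first upwards and Cirbp first downwards (38.9 and 33.7 to 7.86 and 6.6 RPKM, log2 fold change -2.33, SE 0.17, adjusted p = 1.8e-07, edgeR glmTreat).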

How the data were processed

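TruSeq libraries were aligned by the authors to mm10 with Rsubread. The deposited values are raw counts per Entrez gene from featureCounts, with exon lengths and no normalization. IDs were matched to RefSeq (25275 of 27179). Unmatched, mitochondrial, ribosomal RNA, X and Y genes and immunoglobulin variable segments were removed. The remaining 23700 genes held 84.0% to 90.6% of each library, and filterByExpr kept 12750. The versions were edgeR 4.0.16, DESeq2 1.42.0, limma 3.58.1 and R 4.3.3. After TMM scaling, all 12 libraries entered a one-way quasi-likelihood fit (robust, earlier method). The test was glmTreat against a fold of 1.5, or the F-test, two-sided, with Benjamini-Hochberg adjustment at 0.05 over all genes. The p-values measure the spread between 2 replicates per stage, which may be partly technical, and the comparisons share stages. RPKM were computed from the counts and deposited lengths.

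By rule, the DE member with the largest rise and fall in each family and comparison is given with full statistics (Srsf12 by its counts only), the same genes of each function list are named with their values, and any other member may be named. A gene of the function lists that the rule would name is not reported here. Members and lists were chosen with earlier results of these data known. Hnrnpa1l2-ps2 was left out by its symbol although the annotation classes it as protein coding. The 3 promoter motifs were chosen by hand. The alternatives were 2 other scalings, DESeq2, 2 filters, 2 dispersion settings, a replicate term, keeping the removed genes, no fold threshold, and leaving out each library. The scripts were tested on simulated data.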

Additional observations from a re-analysis of the deposited data

How the results depend on the processing

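Counts are of DE members unless stated. Without the fold threshold they became 41 up and 3 down (naive to 3 h), 16 and 18 (3 to 10 h), 7 and 8 (10 to 33 h), 4 and 18 (33 h to expanded), 1 and 38 (expanded to plasmablast) and 20 and 17 (naive to plasmablast). With library size alone they became 12 up and 0 down for 3 to 10 h, 37 down for expanded to plasmablast, and 5 up and 10 down for naive to plasmablast, and changes of any size became 5 down for naive to 3 h, 25 up and 9 down for 3 to 10 h, 13 down for 10 to 33 h and 0 up for expanded to plasmablast. The same scaling left 9 members highest at 3 h, 13 at 10 h and 0 in plasmablasts, and 13 lowest in naive cells (these were chosen after seeing the data), and turned the Sf3 median for 3 to 10 h from -0.04 to 0.29. With DESeq2 there were 0 down for naive to 3 h, 3 up for 3 to 10 h, 9 down for expanded to plasmablast, 2 down for naive to plasmablast, and 11 changed upwards in any size for 10 to 33 h. Apart from library size alone, which moves all genes, the cause was not tested.

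Leaving out single libraries gave 0 to 1 down for naive to 3 h (any size 1 to 2), 3 to 8 down for 3 to 10 h, 3 to 9 down in any size for 10 to 33 h, 1 to 7 up and 9 to 18 down in any size for 33 h to expanded, 9 to 15 down and 0 to 1 up in any size for expanded to plasmablast, and 2 to 4 down (any size 10 to 17) for naive to plasmablast. Under every alternative with the 1.5-fold threshold, 20 of 25 rises to 3 h were called, 3 of 6 rises and 0 of 6 falls to 10 h, and 9 of 18 falls into plasmablasts. The labels do not say whether same-numbered libraries share a mouse. Their deviations correlated at -0.139 to 0.0841 over 15 pairs of stages, which cannot decide this. With the replicate block the counts, in the same order, were 25 up and 1 down, 6 and 6, 0 and 0, and 0 and 0. For expanded to plasmablast and naive to plasmablast they were 0 and 17, and 8 and 5. Depth limits Srsf12 and Snrpn, and with 2 libraries a stage the spread is estimated from few samples.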
